A study of Mus musculus with 3 samples.

Results

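The genes described here build or run cilia, and 51 of the 21887 protein-coding genes on the assembled chromosomes of the RefSeq table for GRCm38.p6 were chosen by symbol. The 22 transport genes were the 14 Ift genes and the 8 Bbs genes that carry a number. The 29 motile axoneme genes were 7 Dnaaf, 7 Rsph and 15 numbered Dnah genes. ETV5, an ETS-family transcription factor, and the promoter mark H3K4me3, histone H3 with its lysine 4 trimethylated, were each mapped by chromatin immunoprecipitation and sequencing in 1 library. The cells were alveolar type II (AT2) cells, the surfactant-producing cells of the lung alveolus, from C57BL/6 mice aged 10 to 12 weeks, with no genotype or treatment that separates the libraries. An input library without antibody from the same kind of cells is listed beside them, and the number of mice is not given in the labels. A gene was counted as having a peak when any base of a deposited peak lay in the gene or within 5 kb of it.

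Intraflagellar transport (IFT) trains carry cargo along the axoneme of nearly every cilium, and the BBSome, an adaptor built of Bbs proteins, moves membrane proteins with them. Motile cilia of airway multiciliated cells additionally need axonemal dynein heavy chains (Dnah), cytoplasmic factors that assemble the dynein arms (Dnaaf) and radial spokes (Rsph), which regulate the beat. AT2 cells are not multiciliated, and motile ciliary genes in other tissues are known targets of RFX and FOXJ1 transcription factors.

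The upstream sequences of a few members show the promoters on which the comparisons below turn. Each run is the 250 bases upstream of the start in the RefSeq promoter table (GRCm38.p6), 5′ to 3′ on the strand of the gene. Capitals mark either CCGGAAG or its reverse complement, the core of many ETS sites, or GTTGCC or its reverse complement, which forms an arm of the RFX X-box. Ift88 and Bbs2 had the highest ETV5 fold at the start among transport genes, Rsph3a and Dnaaf2 among motile genes. Dnaaf6 and Dnah10 are by symbol the first motile genes listed with neither kind of peak. Dnaaf4 was added after its values were seen, because its ETV5 summit lay within 10 bp of an ETS core.
Ift88, chr14:57423821-57424070, plus strand: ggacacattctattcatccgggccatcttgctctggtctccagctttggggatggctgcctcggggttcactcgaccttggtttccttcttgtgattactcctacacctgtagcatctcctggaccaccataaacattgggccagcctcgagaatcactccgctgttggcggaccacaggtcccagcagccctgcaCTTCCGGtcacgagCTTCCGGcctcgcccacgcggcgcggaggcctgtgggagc
Bbs2, chr8:94098510-94098759, minus strand: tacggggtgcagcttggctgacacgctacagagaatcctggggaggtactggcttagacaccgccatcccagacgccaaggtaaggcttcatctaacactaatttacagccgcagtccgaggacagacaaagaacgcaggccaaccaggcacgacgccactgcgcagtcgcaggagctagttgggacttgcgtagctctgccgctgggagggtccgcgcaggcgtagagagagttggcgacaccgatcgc
Rsph3a, chr17:7945364-7945613, plus strand: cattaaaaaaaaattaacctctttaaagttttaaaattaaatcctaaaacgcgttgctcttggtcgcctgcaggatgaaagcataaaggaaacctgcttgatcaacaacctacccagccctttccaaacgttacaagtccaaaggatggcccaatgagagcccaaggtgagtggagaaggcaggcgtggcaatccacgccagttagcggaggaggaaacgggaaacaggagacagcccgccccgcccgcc
Dnaaf2, chr12:69198430-69198679, minus strand: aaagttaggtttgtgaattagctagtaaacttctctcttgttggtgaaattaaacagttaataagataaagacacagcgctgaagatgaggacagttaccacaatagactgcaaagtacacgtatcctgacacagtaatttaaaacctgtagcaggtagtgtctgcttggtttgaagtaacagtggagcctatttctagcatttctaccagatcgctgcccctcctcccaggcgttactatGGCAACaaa
Dnaaf4, chr9:72958535-72958784, plus strand: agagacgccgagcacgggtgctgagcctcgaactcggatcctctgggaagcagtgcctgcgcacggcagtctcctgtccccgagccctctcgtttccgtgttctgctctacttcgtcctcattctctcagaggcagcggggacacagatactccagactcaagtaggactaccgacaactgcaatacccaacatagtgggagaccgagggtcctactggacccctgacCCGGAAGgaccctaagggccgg
Dnaaf6, chr1:31222589-31222838, plus strand: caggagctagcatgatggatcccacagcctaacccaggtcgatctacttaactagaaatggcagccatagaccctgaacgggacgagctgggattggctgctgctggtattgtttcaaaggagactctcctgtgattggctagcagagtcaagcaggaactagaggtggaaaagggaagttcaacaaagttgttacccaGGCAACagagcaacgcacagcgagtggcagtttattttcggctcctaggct
Dnah10, chr5:124724835-124725084, plus strand: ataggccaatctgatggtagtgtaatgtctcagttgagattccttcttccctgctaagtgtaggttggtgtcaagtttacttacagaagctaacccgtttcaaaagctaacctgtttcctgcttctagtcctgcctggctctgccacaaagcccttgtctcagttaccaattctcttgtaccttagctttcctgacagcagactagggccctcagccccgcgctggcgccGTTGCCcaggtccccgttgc

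The peak caller kept 5715049 ETV5 tags and 34907608 H3K4me3 tags, and it called 31156 ETV5 and 15129 H3K4me3 peaks on assembled chromosomes. Fold enrichment and pileup are the authors' own values. The pileup is the number of fragments over the summit, the highest point of a peak, and the fold is that number over the local input level. Folds of the ETV5 and the H3K4me3 list are not on a common scale, because depth, tag length and input differed. Intervals after a pileup are exact 95% Poisson intervals and cover counting error only. With 1 library per antibody no value has a replicate check, and no test of a difference between gene groups was made. All 10 AT2 markers examined, Sftpc and Abca3 among them, had H3K4me3 within the 5 kb window, at folds of 21.8 to 60.9. It was also found at 4 of 5 markers of AT1 cells, the flat alveolar cells, at folds of 19.6 to 45.8, at 1 of 4 endothelial and 1 of 5 leukocyte markers, and at none of 5 club cell or 4 basal cell markers. The leukocyte marker was Cd68, and the summits in its window lay in the neighbours Mpdu1 and Eif4a1. Within 1 kb of the start, 0 of 5 leukocyte markers had H3K4me3.

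Transport genes had peaks of both kinds at almost every member, while motile axoneme genes were near the level of all genes. H3K4me3 was found at 22 of 22 transport genes (100%) and at 16 of 29 motile genes (55.2%), with 59.8% of all 21887 genes as background. ETV5 was found at 21 of 22 transport genes (95.5%) and at 19 of 29 motile genes (65.5%), against 63.2% of all genes. The motile share of either kind thus lay close to the background, and the transport share lay above it. The median of the highest ETV5 fold per gene was 17.1 for the 21 transport genes with a peak (quartiles 9.78 and 25.4) and 10.2 for the 19 motile genes (6.80 and 22.7), beside 14.4 for the 13840 such genes (8.64 and 24.1). These medians differed by less than the spread within each group. For H3K4me3 the medians were 28.8 for transport genes and 16.2 for motile genes, beside 35.7 for all genes with a peak, so both groups lay below the genome in the height of this mark.

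**Figure D1:**
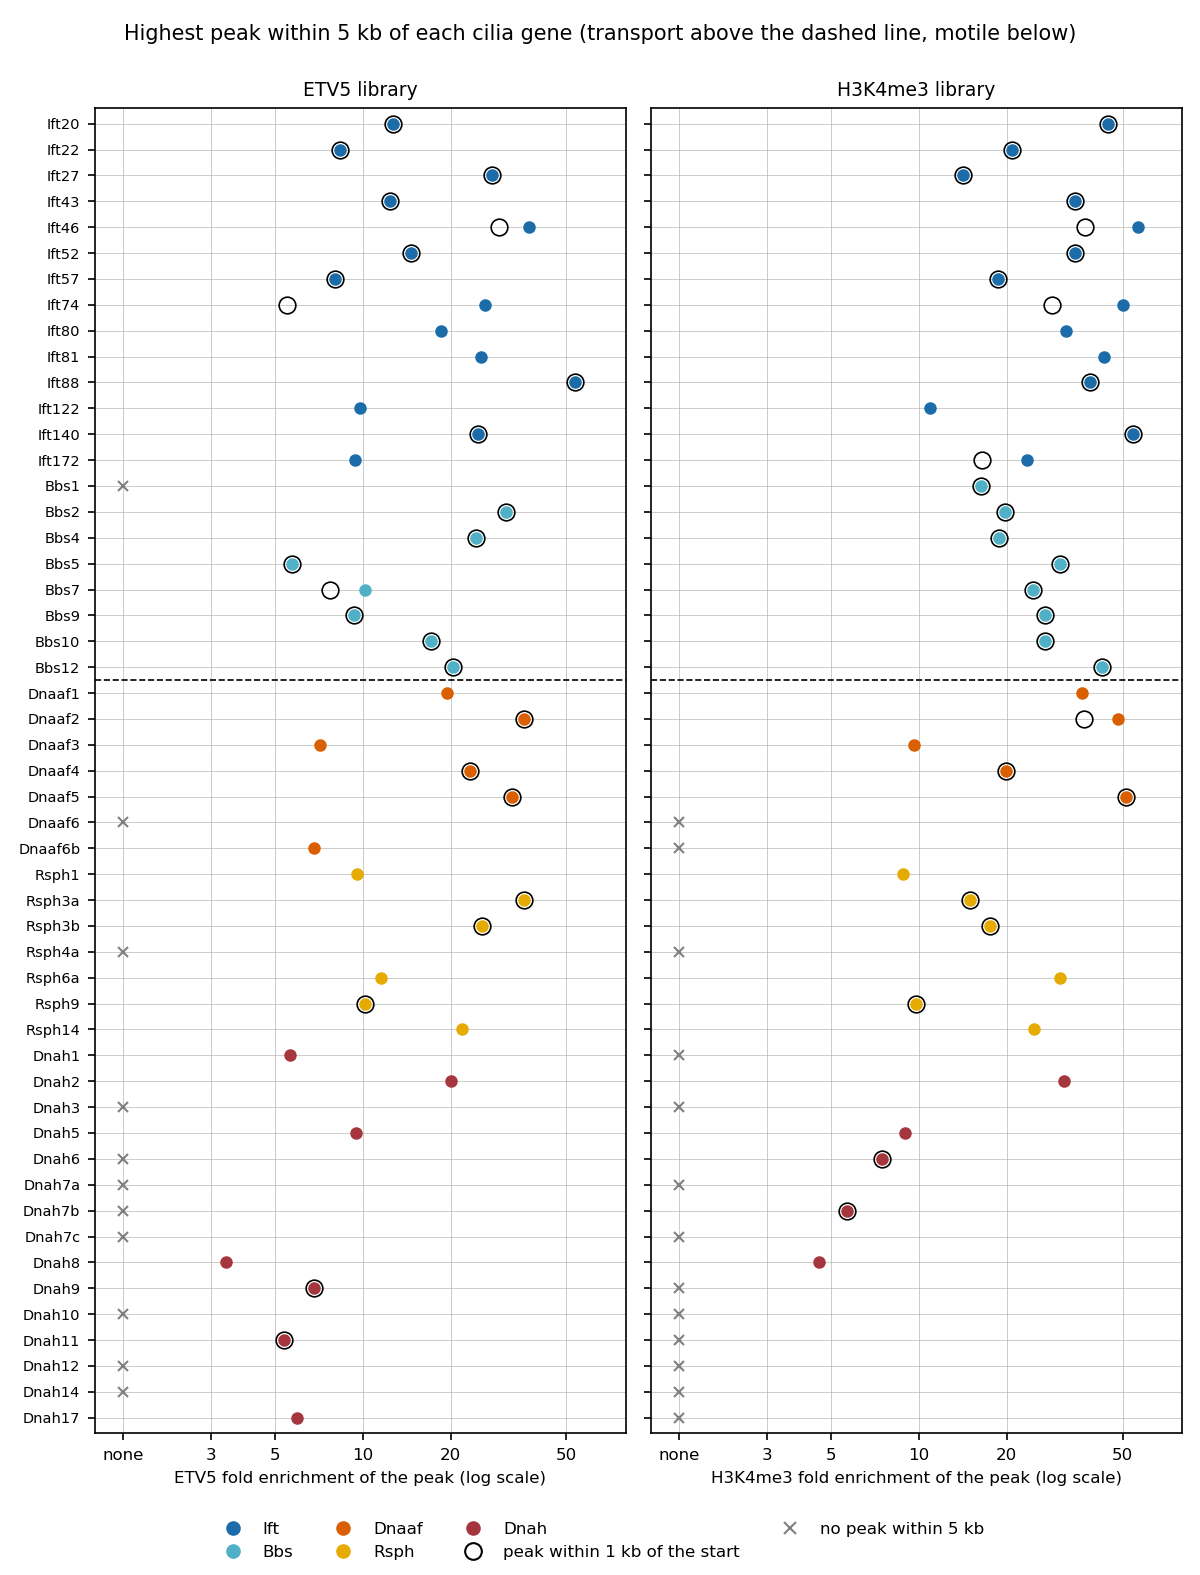
Highest fold enrichment within 5 kb of each of the 51 genes in the ETV5 and the H3K4me3 list, on a log axis. Filled points are coloured by family, open circles give the highest peak within 1 kb of the start, and crosses stand for no peak. Ift and Bbs genes have a value in nearly every row, and the Dnah rows are mostly empty or low.

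Other counting rules kept transport genes ahead. With a 20 kb window, 22 transport and 21 motile genes had ETV5, against 68.6% of all genes. At a −log10 q of at least 10, 20 transport and 12 motile genes had it, against 51.5% of all genes. At a fold of at least 10, 15 transport and 10 motile genes had ETV5, against 43% of all genes, and 22 transport and 9 motile genes had H3K4me3, against 54.2% of all genes. With each peak given only to its nearest gene, 19 transport and 17 motile genes had ETV5, against 57% of all genes, and 20 transport and 13 motile genes had H3K4me3, against 52.1% of all genes. Motile genes thus lay below the background where only high peaks or H3K4me3 peaks nearest to them were counted.

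The motile group was not uniform. Most assembly factor and spoke genes had a peak within 5 kb. H3K4me3 was found at 5 of 7 Dnaaf and 6 of 7 Rsph genes, beside 59.8% of all genes. ETV5 was found at 6 of 7 of each, beside 63.2% of all genes. Among the dynein heavy chains 5 of 15 (33.3%) had H3K4me3 and 7 of 15 (46.7%) had ETV5. With each peak given only to its nearest gene, H3K4me3 was left at 4 of 7 Dnaaf, 4 of 7 Rsph and 5 of 15 Dnah genes. This stood beside 52.1% of all genes. ETV5 was then left at 5 of 7, 6 of 7 and 6 of 15, beside 57% of all genes. Dnah genes are long, with a median of 238340 bp against 17169 bp for all genes, and a longer gene offers more room for a peak. Among the 3824 genes at least as long as the shortest Dnah gene (65517 bp), 71.9% had H3K4me3 and 74.5% had ETV5. The Dnah shares were thus below those of genes of at least 65517 bp as well as below those of all genes. That set has a median length of 120709 bp and is not matched in length to the Dnah genes. The median highest ETV5 fold of Dnah genes was 5.92, against 21.4 for Dnaaf, 16.7 for Rsph, 16.6 for Ift and 17.1 for Bbs genes with a peak. By nearest gene only, these medians were 6.37 for Dnah, 23.4 for Dnaaf, 9.86 for Rsph, 13.5 for Ift and 17.1 for Bbs genes.

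**Figure D2:**
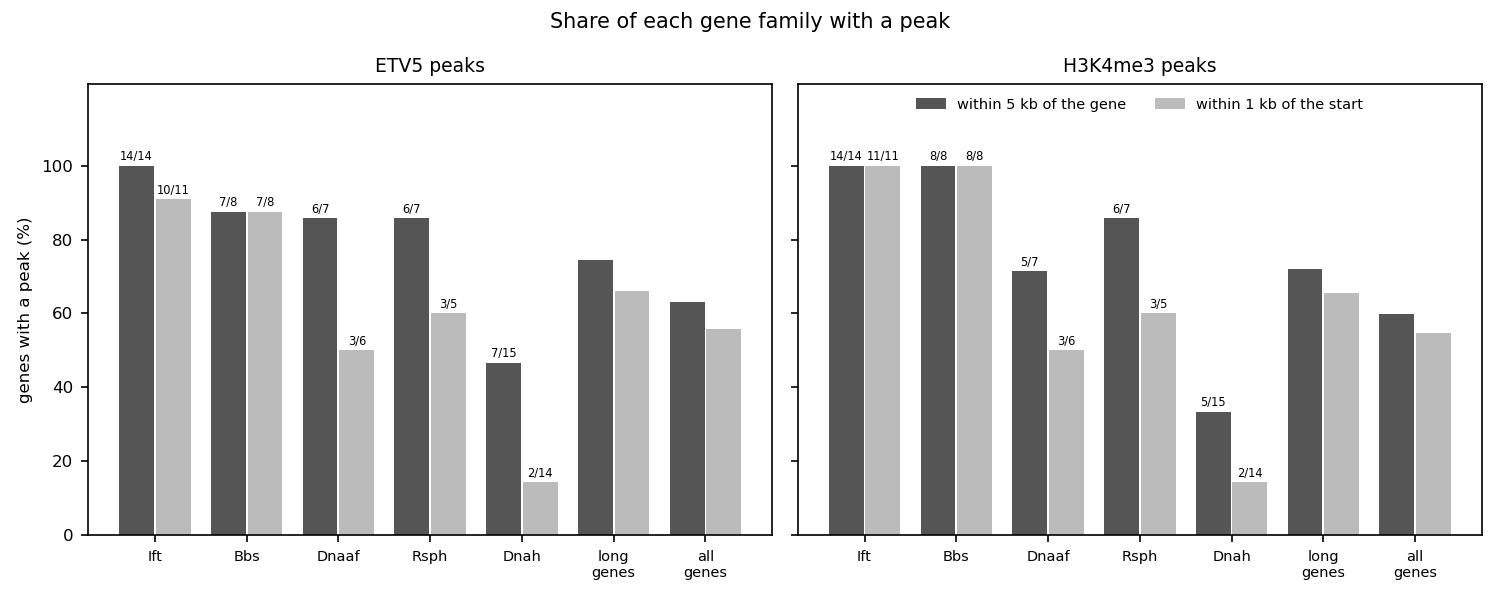
Percent of genes of each family with an ETV5 peak (left) or an H3K4me3 peak (right) within 5 kb of the gene (dark bars) or within 1 kb of the listed start (light bars), where long genes are those of at least 65517 bp. Numbers above the bars are genes with a peak over genes examined, and the Dnah bars at the start stand at 2 of 14 in both panels.

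At the start itself the groups stood further apart. A start and strand were available for 44 members, and Ift122, Ift80, Ift81, Dnaaf1, Dnah3, Rsph1 and Rsph4a had none. H3K4me3 lay within 1 kb of the start of 19 of 19 transport genes and of 8 of 25 motile genes (32%), with 54.6% of 17492 genes as background. ETV5 lay there in 17 of 19 transport genes and in 8 of 25 motile genes (32%), against 55.7% of all genes. Motile genes thus lay below the background at the start for both kinds of peak, whereas over the whole gene they lay close to it. Dnaaf genes had each mark at 3 of 6 starts and Rsph genes at 3 of 5. Of the 14 Dnah starts, 2 had H3K4me3 (Dnah6 and Dnah7b) and another 2 had ETV5 (Dnah9 and Dnah11), with no start that had both. Among the starts of genes of at least 65517 bp, 65.6% had H3K4me3 and 66% had ETV5. Where ETV5 lay at a start, its median fold was 14.6 for transport genes (n = 17) and 24.5 for motile genes (n = 8), beside 13.8 for all such starts. The motile starts were uneven, with Dnah11 at 5.37 and Dnah9 at 6.82 below the 6 Dnaaf and Rsph starts, which lay between 10.2 and 35.8.

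Among Ift genes, which encode the subunits of the transport trains, Ift88 stood highest. Its protein is a core subunit of the IFT-B complex. The ETV5 peak (chr14:57423618-57424412) was 795 bp wide and reached a fold of 53.5 with 108 fragments at the summit (88.6 to 130), 9 bp downstream of the start. Only 621 of the 13840 genes with ETV5 had a higher peak. The H3K4me3 peak over it had a fold of 38.6. The nearest end of another gene, Cryl1, lay 25597 bp from the summit. Ift46, another IFT-B subunit, had an ETV5 peak at its start (chr9:44772729-44773523) 795 bp wide, with a fold of 29.4 and a pileup of 65 (50.2 to 82.8), 93 bp upstream. Its window also held a peak of fold 37.3 (chr9:44767245-44768011, pileup 75, interval 59 to 94), but that summit lay 100 bp from the end of Arcn1, a coat protein gene. Ift27, a small GTPase of the trains, had an ETV5 peak 1142 bp wide (chr15:78173474-78174615) with a fold of 27.8 and a pileup of 73 (57.2 to 91.8), 299 bp upstream. It had the most distant ETV5 summit among the transport starts.

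The other Ift genes differed widely in ETV5 height under a mark that was present throughout. Of the IFT-A subunits, which serve the return transport, Ift140 had an ETV5 fold of 24.95, Ift43 of 12.4 and Ift122 of 9.78. Ift52, an IFT-B core subunit, had a fold of 14.6 with the summit 1 bp from the start, and Ift57 had 8.01. Ift172, a large peripheral IFT-B subunit, was the exception: its start carried H3K4me3 at a fold of 16.5 and had no ETV5 peak. The peaks that placed it among the ETV5 genes, of fold 9.37 and 7.39, lay 63 bp from the end of Krtcap3 and 164 bp from the end of Fndc4. The highest ETV5 peaks of Ift74 and Ift80, of fold 26.3 and 18.6, covered an end of the gene but had summits slightly nearer to a neighbour. The summit lay 105 bp from the end of Ift74 and 86 bp from that of Plaa. At Ift80 it lay 523 bp from the gene end and 465 bp from that of Smc4. These peaks cannot be assigned to either gene. At the listed start of Ift74 the fold was 5.47. Ift81, which pairs with Ift74 to bind tubulin, had a peak of fold 25.4 at its gene end, 29428 bp from any other gene. Ift20, an IFT-B subunit also found at the Golgi, had a fold of 12.7 with the summit nearer to Tnfaip1, and Ift22, a small GTPase-like subunit, had 8.33.

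Among Bbs genes, Bbs2, a BBSome core subunit, had the highest ETV5 peak (chr8:94098105-94098825), 721 bp wide with a fold of 31.0 and a pileup of 88 (70.6 to 108), 56 bp downstream of the start. Bbs4, also a BBSome subunit, had a peak 409 bp wide (chr9:59353280-59353688) with a fold of 24.4 and a pileup of 59 (44.9 to 76.1), 21 bp downstream. Bbs12, a chaperonin-like protein needed to assemble the BBSome, had a peak 750 bp wide (chr3:37312153-37312902) with a fold of 20.4 and a pileup of 40 (28.6 to 54.5), 137 bp downstream. The start of Bbs12 lay 108 bp from that of Cetn4 on the other strand, so its peak cannot be assigned to either gene. ETV5 and H3K4me3 heights did not run together in this family. Bbs2 and Bbs4 had H3K4me3 folds of 19.7 and 18.8, whereas Bbs5, a BBSome subunit with an ETV5 fold of only 5.72, had an H3K4me3 fold of 30.5. Bbs10, like Bbs12 a chaperonin-like gene, had an ETV5 fold of 17.1, and the BBSome subunit genes Bbs9 and Bbs7 had 9.35 and 7.74 at their starts. Bbs1, a BBSome subunit that binds its membrane recruiter ARL6, was the transport gene without ETV5. Its H3K4me3 peak (chr19:4906224-4906746), with a fold of 16.3, a pileup of 104 (85.0 to 126) and a summit 127 bp downstream of the start, was with 523 bp the narrowest highest peak of the group. The nearest ETV5 peak lay 7322 bp away, just outside the window, with a fold of 4.90.

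Dnaaf genes included some of the highest ETV5 peaks of all members. Dnaaf2, a cochaperone of dynein arm assembly, had a peak 1633 bp wide (chr12:69196767-69198399) with a fold of 35.7 and a pileup of 94 (76 to 115), under H3K4me3 of fold 36.8. Its summit lay 1247 bp downstream of the listed start, while the peak itself extended nearly to that start. A further ETV5 peak in its window, of fold 28.0, lay 15 bp from the end of Rpl36al, a ribosomal protein gene. Dnaaf5, another assembly factor, had an ETV5 peak 1099 bp wide (chr5:139149448-139150546) with a fold of 32.6 and a pileup of 79 (62.5 to 98.5), 39 bp downstream of the start, and its H3K4me3 reached a fold of 51.3 (chr5:139150074-139151145, 1072 bp wide, pileup 326, interval 292 to 363). Its start lay 234 bp from that of Prkar1b, a protein kinase A subunit gene on the other strand, and these peaks could belong to either. Dnaaf4 had no such partner. Its ETV5 peak was 569 bp wide (chr9:72958472-72959040) with a fold of 23.4 and a pileup of 71 (55.5 to 89.6), 11 bp upstream of the start, and its H3K4me3 peak (chr9:72958256-72959361) had a fold of 19.9 and a pileup of 143 (121 to 168).

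The other Dnaaf genes had peaks nearer to a neighbour, away from the listed start, or none. In the window of Dnaaf1 the highest peaks, of ETV5 fold 19.4 and H3K4me3 fold 36.3 (pileup 262, interval 231 to 296), lay 116 and 373 bp from the end of Hsdl1. Their summits lay 137 and 394 bp from the end of Dnaaf1 itself. A further pair inside Dnaaf1 (chr8:119585821-119586455 for H3K4me3) had folds of 14.2 for ETV5 and 8.43 for H3K4me3. Dnaaf3 had ETV5 at a fold of 7.10 with a pileup of 13 (6.92 to 22.2) and H3K4me3 at a fold of 9.57 (chr7:4526553-4527155, 603 bp wide, pileup 60, interval 45.8 to 77.2), both inside the gene and over 5 kb downstream of the listed start. Dnaaf6b on chromosome X had an ETV5 peak of fold 6.79 on the side of Nup62cl and no H3K4me3, and Dnaaf6 on chromosome 1 had neither. When aligned, their promoter entries are identical at 66% of their 300 bases, and whether reads map to both copies was not tested. RFX X-box letters begin 59 bp upstream of the listed start in Dnaaf6 and 7 bp upstream in Dnaaf6b. The entries are thus offset, and the percentage can understate how alike the copies are.

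The radial spoke genes had peaks at their own start or end, at neighbours, or none. Rsph3a, a spoke stalk gene, had an ETV5 peak 663 bp wide (chr17:7945561-7946223) with a fold of 35.8 and a pileup of 57 (43.2 to 73.9), 275 bp downstream of the start, and H3K4me3 of fold 14.9 (1285 bp wide, pileup 94, interval 76 to 115). Rsph3b, its paralog on the same chromosome, had an ETV5 peak 704 bp wide (chr17:6948081-6948784) with a fold of 25.7 and a pileup of 46 (33.7 to 61.4), 67 bp upstream, and H3K4me3 of fold 17.6 (771 bp wide, pileup 111, interval 91.3 to 134). When aligned, their promoter entries are identical at 52% of their 300 bases, and whether reads map to both copies was not tested. Rsph9 and Rsph1, which encode spoke head proteins, had weaker peaks at a gene end. Rsph9 had an ETV5 fold of 10.2 and an H3K4me3 fold of 9.74 (chr17:46143614-46144587, pileup 70, interval 54.6 to 88.4), and Rsph1 had 9.53 and 8.78 (chr17:31276897-31277481, pileup 55, interval 41.4 to 71.6). The H3K4me3 peaks of Rsph14 and Rsph6a, and their highest ETV5 peaks, lay at neighbours. The highest ETV5 peak of Rsph14 (chr10:75036896-75037404, 509 bp wide, fold 21.9, pileup 62, interval 47.5 to 79.5) lay 198 bp from the end of Rab36, and its H3K4me3 (fold 24.8, pileup 157, interval 133 to 184) lay 196 bp from the end of Gnaz. The highest peaks of Rsph6a, of ETV5 fold 11.5 and H3K4me3 fold 30.6 (pileup 194, interval 168 to 223), lay 26 and 142 bp from the end of Dmwd. An ETV5 peak of fold 14.0 (chr10:74990597-74992018, pileup 26, interval 17.0 to 38.1) had its summit inside both Rsph14 and Gnaz, 23713 bp from the nearest end of Gnaz. It cannot be assigned to either gene. With each peak given only to its nearest gene, the highest ETV5 fold was 5.44 at Rsph14 and 4.78 at Rsph6a. That peak of Rsph14 also lay 200 bp from the end of Gnaz. Rsph4a, another spoke head gene, had neither, and its nearest peaks lay 103202 bp (ETV5) and 34336 bp (H3K4me3) away.

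Of the dynein heavy chains, Dnah2, an inner arm chain, held 13 of the 22 ETV5 peaks of the family. Its highest, of fold 20.03 (chr11:69417407-69420268, 2862 bp wide, pileup 41, interval 29.4 to 55.6), and its highest H3K4me3 peak, of fold 31.5 (chr11:69416958-69420780, 3823 bp wide, pileup 227, interval 198 to 259), lay at Kdm6b, a histone demethylase gene next to its far end. A further ETV5 peak of fold 19.7 (chr11:69443407-69444137, pileup 31, interval 21.1 to 44) lay inside Dnah2, 105501 bp downstream of its start and outside H3K4me3. Nearer to the start, 2339 bp downstream, Dnah2 had H3K4me3 of fold 10.8 (pileup 68, interval 52.8 to 86.2) with an ETV5 peak of fold 9.85.

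Dnah5, an outer arm chain, had both marks at low fold. Its ETV5 peak was 621 bp wide (chr15:28158735-28159355) with a fold of 9.44 and a pileup of 16 (9.15 to 26), and its H3K4me3 peak 874 bp wide (chr15:28158610-28159483) with a fold of 8.94 and a pileup of 56 (42.3 to 72.7). Both summits lay inside the gene, about 4.3 kb from its upstream end, but at −44657 and −44572 bp relative to the start that the promoter table lists, which itself lies far inside the gene. The count of Dnah5 among the starts without a peak rests on that listed start. Dnah9, an outer arm chain, had ETV5 alone (chr11:66168182-66168402, 221 bp wide, fold 6.82, pileup 11, interval 5.49 to 19.7), 270 bp downstream of the start, and Dnah11, also an outer arm chain, had ETV5 of fold 5.37 and a pileup of 8 (3.45 to 15.8), 418 bp downstream. Pileups of this size carry a wide counting error. H3K4me3 without ETV5 was found at Dnah6 (fold 7.46, pileup 53, interval 39.7 to 69.3, 626 bp wide, at −381 bp from the start) and at Dnah7b (fold 5.65, pileup 35, interval 24.4 to 48.7, 444 bp wide, 118 bp downstream), which both encode inner arm chains. Dnah8, an outer arm chain known from sperm, had both marks over 31 kb inside the gene, with folds of 3.38 for ETV5 and 4.54 for H3K4me3 (pileup 46, interval 33.7 to 61.4), and its ETV5 fold ranked 13820 of 13840. Dnah17, also a sperm outer arm chain, had 4 ETV5 peaks of fold 3.56 to 5.92, and Dnah1, an inner arm chain, had 1 of fold 5.60 nearest to Bap1, none of them in H3K4me3. Dnah3, Dnah7a, Dnah7c, Dnah10, Dnah12 and Dnah14 had no peak of either kind, and Dnah3 came closest, with an ETV5 peak of fold 9.76 at 6839 bp.

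**Figure D3:**
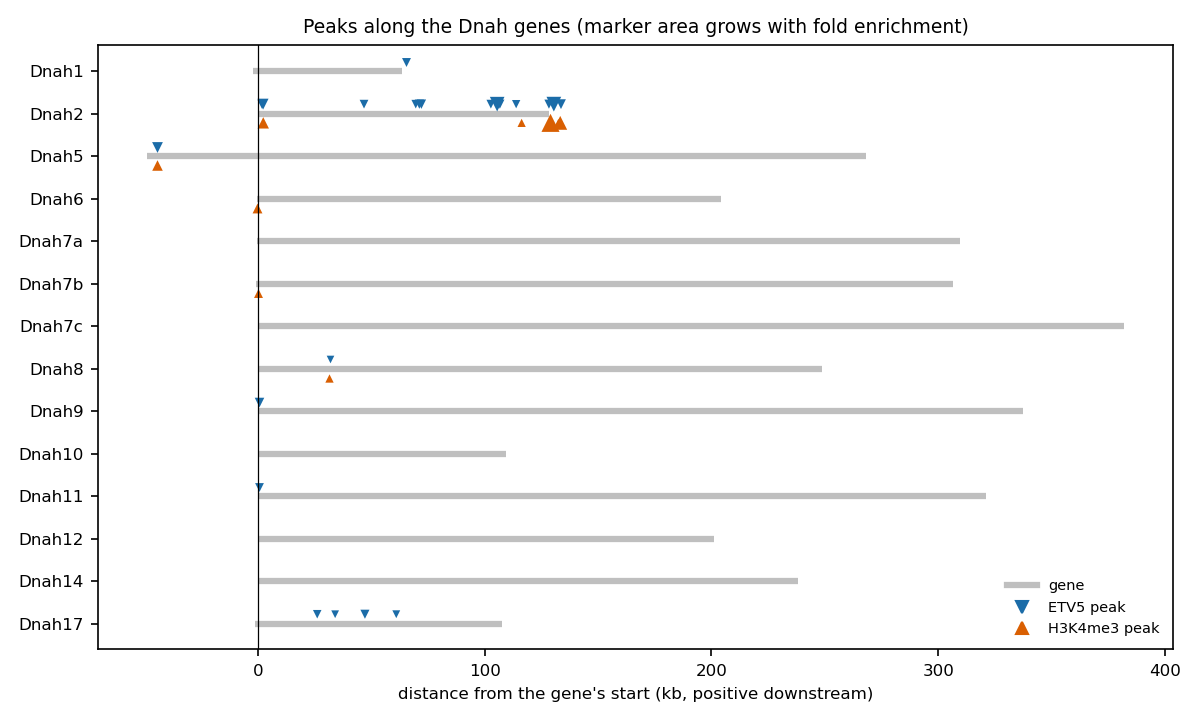
Peaks in the windows of the 14 Dnah genes with a listed start, drawn by distance from the listed start in kb with the gene as a line, for ETV5 and H3K4me3. Most of the marks lie away from the start, Dnah2 holds 13 of the 22 ETV5 peaks, and the peaks of Dnah5 lie far upstream of the listed start but within the gene.

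Most ETV5 peaks of transport genes lay in H3K4me3, and the share for motile genes was close to that of all ETV5 peaks. Of 32 ETV5 peaks in the windows of transport genes 28 (87.5%) overlapped an H3K4me3 peak by at least 1 bp, and of 45 in those of motile genes 21 (46.7%) did, with 15 of the 24 others in Dnah windows, beside 48.9% of all ETV5 peaks. Leaving out genes without any H3K4me3 peak, 21 of 37 motile ETV5 peaks overlapped it. ETV5 peaks outside H3K4me3 were low in both groups, with a median fold of 5.22 for transport genes (n = 4) and 5.34 for motile genes (n = 24), against 12.5 and 10.2 inside it. The windows differed in size, with summed gene lengths of 1.36 Mb for transport and 3.82 Mb for motile genes. Taking genes by their H3K4me3, ETV5 accompanied it at 21 of 22 marked transport genes (95.5%) and 14 of 16 marked motile genes (87.5%), beside 95.2% of all marked genes. The difference between the groups in ETV5 went along with the difference in H3K4me3. Among unmarked motile genes, 5 of 13 had ETV5 (38.5%), namely Dnaaf6b, Dnah1, Dnah9, Dnah11 and Dnah17. The share was 15.8% for all unmarked genes and 23.4% for unmarked genes of at least 65517 bp. Across genes with both peaks, the highest ETV5 and H3K4me3 folds had a Spearman rho of 0.40 for transport (n = 21), 0.68 for motile (n = 14) and 0.46 for all genes (n = 12453). Genes are not independent replicates, neighbours can share a peak, and at starts alone the values were 0.16 (n = 17), 0.31 (n = 6) and 0.44.

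The position of the summits was tight at transport starts. All 17 transport genes with ETV5 at the start had its summit within 300 bp, from 299 bp upstream to 167 bp downstream, with a median distance of 79 bp. Of 8 motile genes 6 did, with a median of 168.5 bp, and of all genes with ETV5 at the start 76.4% did, with a median of 136 bp. Dnaaf2 and Dnah11 were the motile genes beyond it. The H3K4me3 summit lay downstream of the ETV5 summit in 16 of 17 transport genes, in 4 of 6 motile genes and in 70.1% of 8998 genes. The exceptions were Ift140, whose H3K4me3 peak lay on the side of Cramp1l, and Dnaaf2 and Dnaaf4. The median step from the ETV5 to the H3K4me3 summit was 162 bp in transport genes, 157.5 bp in motile genes and 135 bp in all genes. H3K4me3 peaks were of moderate width, with a median of 1096 bp for transport and 986.5 bp for motile genes, beside 1448 bp for all marked genes.

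**Figure D4:**
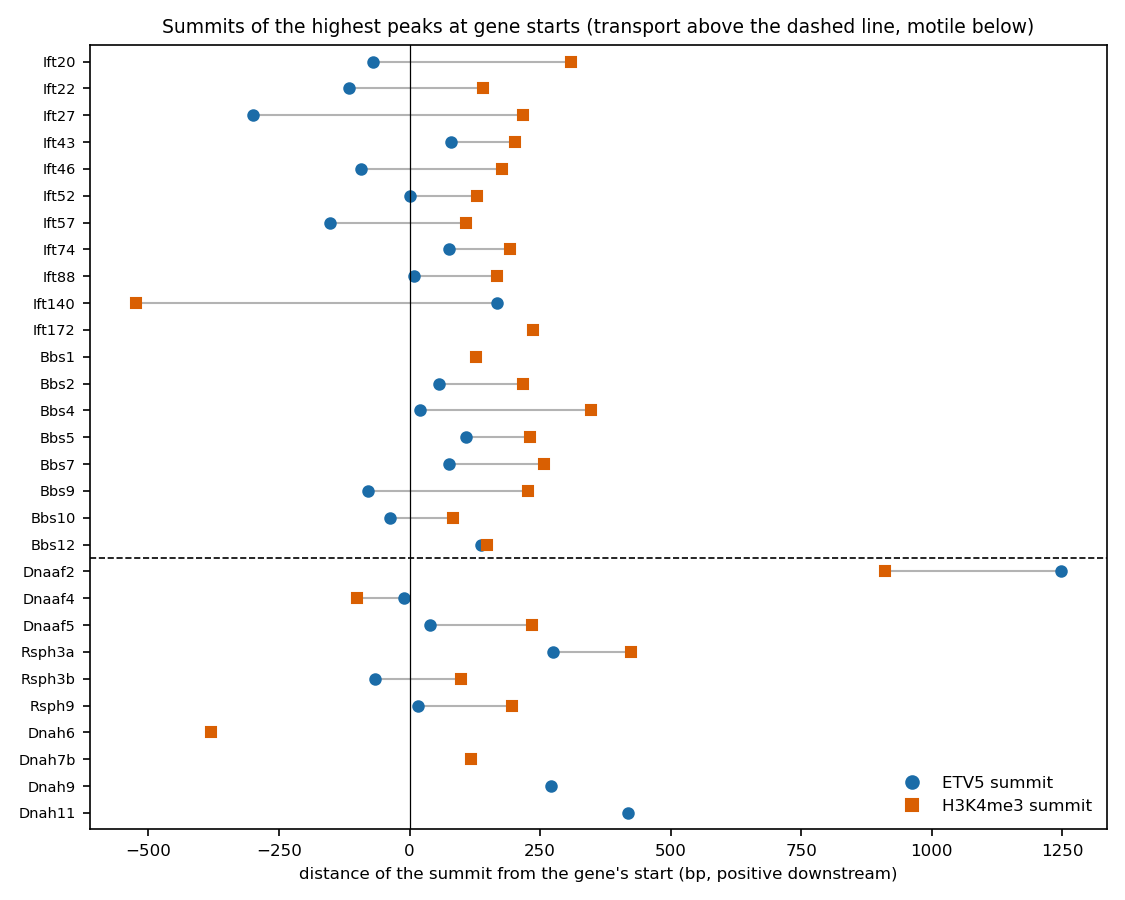
Summits of the ETV5 and H3K4me3 peaks at the listed start of each member with a peak there, as distance in bp from the start with downstream to the right. Transport ETV5 summits lie between 299 bp upstream and 167 bp downstream, and H3K4me3 summits lie mostly to their right.

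Transport and motile promoters differed in CpG content. In the 300 bases of each promoter entry, from 250 upstream to 50 downstream of the start, transport promoters held a median of 22 CpG dinucleotides (range 11 to 35, n = 19) and motile promoters 11.5 (1 to 25, n = 26 entries of 25 genes), beside 13 for 21263 entries of all genes. Bbs promoters had a median of 22.5, Ift 20, Dnaaf 14.5, Rsph 12.5 and Dnah 9.5. The overall base composition was closer, with a median GC content of 57.7% in transport and 54.2% in motile promoters. Within the motile group, the 8 entries with H3K4me3 at the start had a median of 13.5 CpG and the 18 without had 9.5. Both CpG number and the share of starts with H3K4me3 were highest in the transport families and lowest in Dnah genes, and the part of CpG content in the peak counts was not tested.

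**Figure D5:**
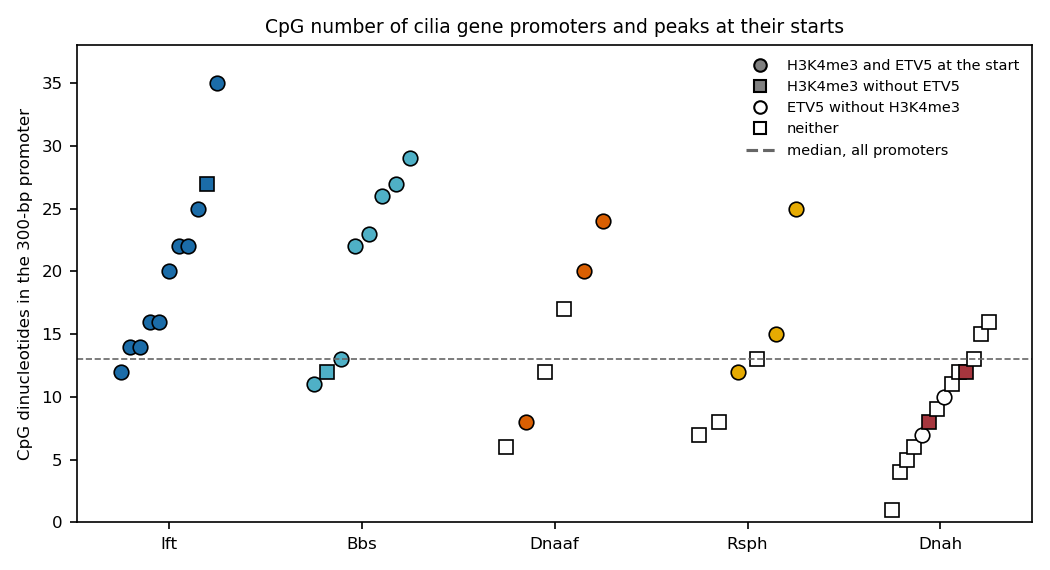
Number of CpG dinucleotides in the 300-base promoter entries of the members by family (45 entries of 44 genes). Filled markers have H3K4me3 at the start, circles have ETV5 there, and the dashed line is the median of all entries (13). Ift and Bbs entries lie mostly above the line and Dnah entries mostly below it.

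The letters of an ETS core did not separate the groups in the way the ETV5 peaks did. CCGGAAG, searched on both strands, was found in 4 of 19 transport entries (21.1%), in 8 of 26 motile entries (30.8%) and in 11.6% of all entries. At the members with both the letters and an ETV5 peak at the start, the summit lay 6 to 101 bp away. It lay 8 and 10 bp from the middle of the matches at Dnaaf4, 6 bp at Rsph3b, 22 bp at Ift20, 25 bp at Bbs4, 40 bp at Bbs2, 46 and 60 bp at Ift88 and 101 bp at Dnaaf5. The longer ACCGGAAGT, which contains CCGGAAG, was found in 1 of 19 transport entries (Ift88), in 4 of 26 motile entries (15.4%) and in 1.44% of all entries. The 4 motile entries were those of Dnah7a, Dnah7b, Dnah7c and Dnah14, and none of these genes had an ETV5 peak within 5 kb. Their 41-base stretches are printed with the match in capitals, and were chosen after the values were seen.
Dnah7a, chr1:53706841-53706881, minus strand: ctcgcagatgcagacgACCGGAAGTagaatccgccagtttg
Dnah7b, chr1:46066789-46066829, plus strand: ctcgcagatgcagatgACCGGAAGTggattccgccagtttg
Dnah7c, chr1:46425409-46425449, plus strand: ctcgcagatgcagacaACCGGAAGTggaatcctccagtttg
Dnah14, chr1:181576498-181576538, plus strand: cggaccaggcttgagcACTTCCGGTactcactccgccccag

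The 3 Dnah7 genes are near copies, with promoter entries identical at 84% of bases between Dnah7a and Dnah7c, 75.3% between Dnah7a and Dnah7b and 67.7% between Dnah7b and Dnah7c, so their matches are not independent. The match begins 81, 48 and 93 bp upstream of the listed start in Dnah7a, Dnah7b and Dnah7c. Their entries are thus offset, and the percentages can understate how alike the copies are. Whether reads were lost or misplaced among the Dnah7 genes was not tested. Dnah14 is not part of this cluster, and its nearest ETV5 peak lay 26495 bp away. A match of letters is a description of this window and not a bound site.

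RFX letters were frequent in both groups. GTTGCC was found in 8 of 19 transport entries (42.1%), in 10 of 26 motile entries (38.5%) and in 12.6% of all entries, with 5 of 6 Dnaaf entries among them. A looser form of the RFX X-box, which can contain GTTGCC, was found at Bbs7 and at Dnaaf2, Dnaaf6 and Dnaaf6b, and in 0.767% of all entries. This form leaves free a base that the full palindrome fixes. Bbs7, Dnaaf6 and Dnaaf6b matched it on both strands. Dnaaf2 matched it only on the strand opposite to the gene, so its X-box is not a full palindrome. The forkhead letters GTAAACA were found in 0 of 19 transport entries, at Dnah17 alone among 26 motile entries and in 3.01% of all entries. Dnaaf2, Dnaaf6 and Dnah10, printed above, show RFX letters with and without a peak.

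Some members share a promoter region with a gene on the other strand. A start on the opposite strand within 1 kb was listed for 3 of 19 transport genes (15.8%), Bbs12, Ift140 and Ift20, and for 2 of 25 motile genes (8%), Dnaaf5 and Dnaaf6b, beside 8.48% of all genes. Members without a listed start could not be counted, and Ift80, Ift122 and Dnaaf1 had their highest ETV5 summits 465, 331 and 116 bp from the end of a neighbour.

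Other cilia genes, taken from lists of the same pathways and chosen with earlier results of these data known, had both kinds of peak at nearly every transport gene and at fewer motile genes. Of 19 other IFT and motor genes 19 had H3K4me3 and 18 had ETV5, all but Rabl2, with the highest folds at Kifap3 (42.4), a kinesin-2 subunit gene, at Kif17 (37.6), where the summit lay 10 bp from the end of Ddost, and at Wdr34 (32.3), a dynein-2 subunit gene. Of 9 other BBSome genes 9 had H3K4me3 and 8 had ETV5, all but Trim32, led by Bbip1 (43.6), Arl6 (24.7) and Mkks (22.5, with its summit 30 bp inside Slx4ip). Of 29 transition zone and primary cilium genes 29 had H3K4me3 and 28 had ETV5, all but Cc2d2a, led by Nphp4 (38.8), Ahi1 (27.8) and B9d2 (26.8, with its summit in Tgfb1). Of 56 other motile axoneme and arm assembly genes 39 had H3K4me3 (69.6%) and 43 had ETV5 (76.8%), above the 59.8% and 63.2% of all genes. Their highest ETV5 folds, at Zmynd10 (70.0), Cfap206 (57.8) and Cfap70 (51.7), belonged to summits nearer to Rassf1, Slc35a1 and Mrps16. At the start, 23 of 47 of these motile genes had H3K4me3 and 26 of 47 had ETV5, beside 54.6% and 55.7% of all starts. Armc4, Cfap44, Dnaic2, Drc1, Dydc2, Hydin, Spag16, Spag17, Spag6l, Spef2, Tekt1 and Tekt3 had neither within 5 kb. These do not stand for whole structural classes. Dnaic1, like Dnaic2 a dynein intermediate chain gene, had ETV5 of fold 29.6 and H3K4me3 of fold 25.3 at its start. The summit of that H3K4me3 peak lay in the neighbour Fam219a.

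Regulators of the multiciliated state mostly had both kinds of peak. Of 18 such genes 15 had H3K4me3 (83.3%) and 16 had ETV5 (88.9%), beside 59.8% and 63.2% of all genes, with the highest ETV5 folds at Ccno (34.0), Rfx3 (29.8) and Trp73 (28.1, nearer to Wrap73). Foxj1 had H3K4me3 at a fold of 19.8 and ETV5 at 11.4. The list was not limited to genes particular to multiciliated cells. Its H3K4me3 folds ran from 3.76 at Gmnc to 56.5 at Rfx7. Myb had 8.31, Gmnc had no ETV5, Foxn4 and Rfx4 had no H3K4me3, and Deup1 had neither. Mcidas and Ccno had a highest H3K4me3 peak of the same fold (17.4) and width (1391 bp), which may be a shared peak. Of 15 with a listed start, 11 had H3K4me3 there and 13 ETV5, beside 54.6% and 55.7% of all starts. Of 12 multiciliated cell markers 10 had H3K4me3 (83.3%), at folds of 3.76 to 36.7, and Sntn and Tekt1 had none, while 9 had ETV5 (75%). Foxj1, Mcidas, Gmnc, Ccno and Myb stand among both the regulators and these markers, so the shares of the lists are not independent. Of 10 markers with a listed start, 8 had H3K4me3 there and 6 had ETV5. In a bulk library a low peak in most cells cannot be told apart from a high peak in few cells, and the part of any multiciliated cells in the motile gene peaks was not tested.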

How the data were processed

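ETV5 and H3K4me3 peaks were called per library against an input with MACS2 2.1.0.20150420 at a q-value threshold of 0.05, per the file headers and the submitters' processing notes. The pileup signal, the fold enrichment ratio and the −log10 q-value (and p-value) were used as the authors deposited them. Per the file headers, 5715049 ETV5 tags of 75 bp were set against 27495486 input tags, and 34907608 H3K4me3 tags of 50 bp against 44758677. The ETV5 input carries another name than the labelled input sample. The labels name mm9, while the deposited coordinates were read as GRCm38, in which 54.6% of 17492 starts had H3K4me3 within 1 kb. At those starts the median summit lay 208 bp downstream of the start in GRCm38.p6. The 1 kb limit keeps this distance small in advance, so it cannot decide the build. A comparison with mm9 was not made.

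Samples were grouped by antibody. Peaks were joined to RefSeq genes with Python 3.11.15, numpy 2.4.6 and pandas 2.3.3, by at least 1 bp within 5 kb of the gene. A peak counted for every gene whose window it touched. Starts and strands came from the RefSeq promoter table, which matched 44 of 51 members. Peaks on unplaced sequence were left out. With 1 library per antibody nothing was tested, and counts stand beside all protein-coding genes. The joins were checked on simulated data. Members, lists and named genes were chosen with earlier results of these data known. In full are given the 3 members of each family with the highest ETV5 fold, transport genes without ETV5 and motile genes with H3K4me3, and of other lists the 3 with the highest ETV5 fold. Genes at least as long as the shortest Dnah gene were added as a background after the values were seen. Alternatives were other windows, thresholds and assignments. Promoter copies were compared by global alignment of 300-base entries.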

Additional observations from a re-analysis of the deposited data

How the results depend on the processing

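Over the alternatives, ETV5 was found at 15 (fold of at least 10) to 22 transport genes (20 kb window) and H3K4me3 at 20 to 22, beside 17 and 19 of 19 at the start. The motile counts depended more on position and threshold. Motile genes with ETV5 numbered 19 within 5 kb, 8 of 25 within 1 kb of the start, 12 at a −log10 q of at least 10 and 10 at a fold of at least 10. Motile genes with H3K4me3 numbered 16 within 5 kb, 8 of 25 at the start and 9 at a fold of at least 10. With each peak given only to its nearest gene, the median highest ETV5 fold was 14.6 for transport genes, against 17.1, and 9.53 for motile genes, against 10.2, and it was 11.5 for motile genes when peaks had to lie within 5 kb of a gene end. The cause of these shifts was not tested. At the lower depth of the ETV5 library, an absent weak peak means only that none was called. No paired analysis was possible because each antibody has 1 library and no test was made.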
